A study of Mus musculus with 151 samples.

Results

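Cytosolic ribosomal proteins are the proteins that, with ribosomal RNA, build the large (60S) and small (40S) subunits of the ribosome. Their mRNAs were measured here in ovaries and germ cells of mice conceived naturally or by in vitro fertilization (IVF). The members were taken by gene name: Rpl or Rps followed by a number and at most a short suffix, the stalk proteins Rplp0 to Rplp2, and Rpsa, with the S6 kinases and names ending in -ps left out. The rule found 85 of 35976 genes in each of the 7 count tables, of which 52 belonged to the large subunit (Rpl) and 33 to the small subunit (Rps). The members lay on 19 chromosomes, and 4 of them were on chromosome X.

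Most ribosomal proteins are needed in equal copy number, and their mRNAs are among the shortest and most abundant in a dividing cell. Many of these mRNAs begin with a cytosine and a run of pyrimidines, the 5′ terminal oligopyrimidine (TOP) tract, through which mTOR signaling and the RNA-binding protein Larp1 set their translation and stability. The growing oocyte accumulates ribosomes, and the fully grown oocyte stops transcription and degrades part of its mRNA as it matures.

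All animals were female offspring of B6/SJL males and CF-1 females, a cross of a hybrid with an outbred stock, and the labels name no genetic modification. Natural offspring came from mating. IVF offspring came from eggs of superovulated CF-1 females, fertilized in vitro, cultured to the blastocyst stage and transferred to pseudopregnant recipients. The tables held E13.5 primordial germ cells (PGCs, pools of 100 cells; 4 Natural, 5 IVF), E18.5 ovaries (4 and 6), ovaries at 12 weeks (4 and 5) and 39 weeks (5 and 5), cumulus cells at 12 weeks (5 and 5), and single oocytes at 12 weeks (36 and 40) and 39 weeks (9 and 10). Adult animals had been delivered by cesarean section and fostered to CF-1 dams, and oocytes and cumulus cells were collected after superovulation of the offspring. In the study's methods IVF fetuses were collected at a later gestational day than Natural fetuses in one passage and at the same stage by label, so conception and gestational age cannot be told apart at E18.5. One Natural ovary of the 39-week group was labelled 40 weeks in 1 field.

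Ovaries were sequenced from poly(A)-selected RNA, and PGCs, oocytes and cumulus cells by a low-input SMART-seq protocol, so tests were made within a table or among ovaries, and levels set side by side across tables are given as values with no test. Total counts ran from 6995713 to 14830788 in E18.5 ovaries, from 2839022 to 43363799 at 12 weeks, where IVF ovary 4 was the shallowest, and from 18079970 to 38751638 at 39 weeks. They ran from 4364495 to 8675189 in PGCs, from 2532824 to 6345249 in cumulus cells, and from 839781 to 10879166 in single oocytes at 12 weeks and 2820748 to 31126357 at 39 weeks. Most libraries expressed the markers of their labelled cells. All 7 germ cell markers averaged at least 1 CPM in PGCs. Of the 9 granulosa markers, 3 averaged at least 1 CPM there, and Foxl2, Amh and Fshr were at 0 in every library. Summed endothelial markers were at 73.5 to 453 CPM in PGC libraries, and oviduct and epithelial markers at 197 to 401 CPM. The part of other cells in these libraries was not tested. All 10 oocyte markers averaged at least 1 CPM in 12-week oocytes and 9 of 10 did in 39-week oocytes, and all 9 granulosa and 4 of 5 cumulus markers did in cumulus cells. Summed oocyte markers were low in some single oocytes: 4 of 36 Natural and 6 of 40 IVF oocytes at 12 weeks had 1837 to 6464 CPM, against at least 13924 in the others, and 2 of 9 Natural oocytes at 39 weeks had 2606 and 4612, against at least 18042. Leaving out these oocytes, those under 10000 CPM, was added after seeing the data. At 39 weeks erythroid markers summed to 3.05 to 31425 CPM in single oocytes, and theca and luteal markers reached 262 CPM. In these bulk samples, fewer cells of a type and less RNA per cell cannot be told apart.

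The share of counts taken by the members differed widely between cell types. The 85 members took 3.98% to 9.77% of TMM-scaled counts in Natural PGCs and 4.13% to 8.07% in IVF PGCs. They took 1.70% to 2.28% in Natural cumulus cells and 2.01% to 2.76% in IVF cumulus cells. In single oocytes at 12 weeks the share was 0.0275% to 0.139% in Natural and 0.0473% to 0.180% in IVF, with medians of 0.0568% and 0.0605%. The lowest Natural and the highest IVF value came from oocytes low in oocyte markers, and without those the share was 0.0451% to 0.139% and 0.0473% to 0.113%. The 2 highest Natural oocytes, both at 0.139%, held 608 and 925 CPM of theca and luteal markers and 129 and 85.9 CPM of cumulus markers, against a Natural median of 3.32 for the latter, and the part of these cells in the share was not tested. Library preparation differed between tissue and low-input tables. PGCs, cumulus cells and oocytes shared one protocol, which reads polyadenylated RNA, but an oocyte library held a single cell and a PGC library a pool. The part of poly(A) tails and of input in these shares was not tested. No group within a table stood apart in these 3 cell types.

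**Figure D1:**
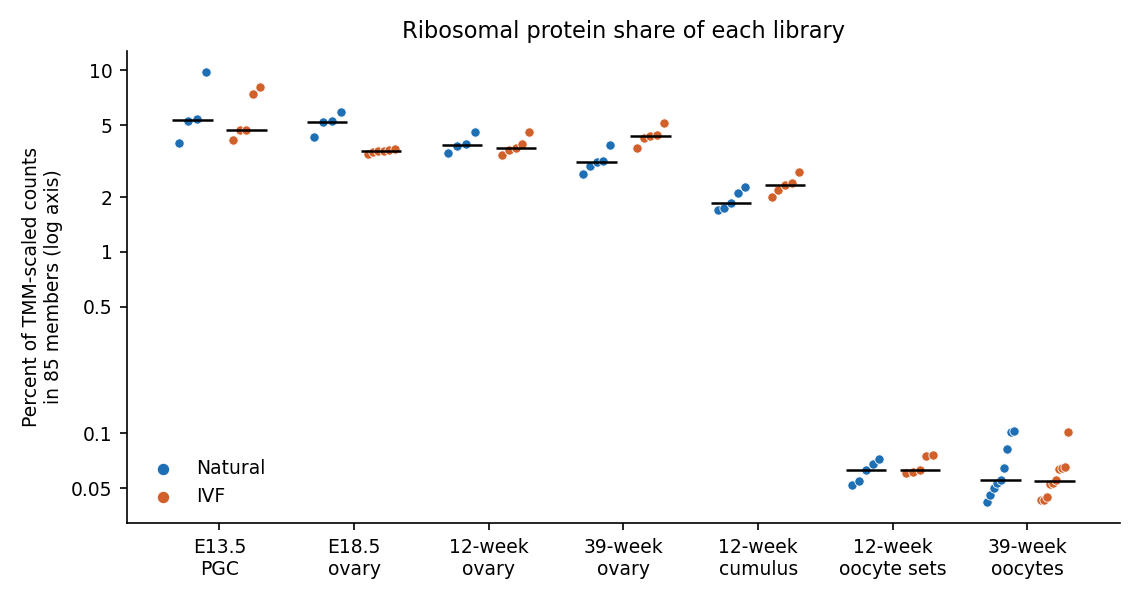
Percent of TMM-scaled counts in the 85 members (log axis) for each library, by table and conception group; 12-week oocytes are summed per donor set, each point is 1 library, set or 39-week oocyte, and bars are medians. The 6 IVF points at E18.5 lie between 3.47% and 3.70%, below all 4 Natural points, and oocytes lie far below every other table.

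At E18.5 the members were lower in IVF ovaries. The share was 4.32%, 5.28%, 5.89% and 5.17% in Natural ovaries 1 to 4. It was between 3.47% and 3.70% in the 6 IVF ovaries, with a mean of 3.60% (SD 0.0778, n = 6), so the groups did not overlap. Of the 85 members, all tested, 58 were called lower and 0 higher at a Benjamini-Hochberg adjusted p under 0.05 (edgeR), against 2.75% of all tested genes called lower and 2.67% called higher. DESeq2 called 72 lower, against 6.04% of all genes. The called members were 31 of 52 large subunit and 27 of 33 small subunit proteins. The median log2 fold change of the members was -0.52, against 0.00 over all 16415 genes, and 83 members were below 0. IVF ovaries were all below Natural ovaries for 55 members, 32 large and 23 small, against 4.33% of all genes.

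The changes lay close together in size, with quartiles of -0.59 and -0.46 on the log2 scale over the 85 members. Rpl37a, a zinc-binding protein of the large subunit, was at 485, 624, 704 and 662 TMM-scaled CPM in Natural ovaries and between 329 and 411 in IVF ovaries, with a median of 392. No IVF ovary reached the lowest Natural ovary, and the log2 fold change was -0.71 (SE 0.11, edgeR adjusted p = 0.0129). Rpsa, the small subunit protein also known as the laminin receptor precursor, was at 1010, 1201, 1408 and 1139 CPM in Natural ovaries and between 729 and 823 in IVF ovaries. Its groups did not overlap either (log2 fold change -0.62, SE 0.10, edgeR adjusted p = 0.0129). Also among the members with the smallest p were Rps27 (log2 fold change -0.60) and Rpl39, which lines the exit tunnel of the nascent peptide (-0.68), each with an edgeR adjusted p of 0.0129. The largest changes among called members were those of Rps3a1 (-0.97), Rpl21 (-0.81) and Rps26 (-0.75), and these genes were picked by size after their values were seen.

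Proteins with known roles outside or at the edge of the subunit were called lower in part. Rplp2, a protein of the stalk that recruits elongation factors, was called lower (log2 fold change -0.64, edgeR adjusted p = 0.0143). The other stalk proteins were not called: Rplp0 had a log2 fold change of -0.37 (edgeR adjusted p = 0.0776) with no overlap of groups, and Rplp1 had -0.32 (edgeR adjusted p = 0.121) with overlap. Rps6, the substrate of the S6 kinases, was at 365, 373, 449 and 361 CPM in Natural ovaries and between 266 and 302 in IVF ovaries (log2 fold change -0.45, edgeR adjusted p = 0.0198). Rps27a, made as a fusion with ubiquitin, was also called lower (-0.48, edgeR adjusted p = 0.0223). Of the 5S particle proteins that bind Mdm2, Rpl11 was called lower (-0.50, edgeR adjusted p = 0.0129) and Rpl5 was not (-0.42, edgeR adjusted p = 0.0824).

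A pair of members went against the majority, and neither was called. Rpl29 was at 74.1, 80.2, 101 and 221 CPM in Natural ovaries and between 56.0 and 166 in IVF ovaries (log2 fold change 0.21, edgeR adjusted p = 0.742). Rpl3l, a striated muscle paralog of Rpl3, was between 0.0836 and 1.40 CPM in every ovary. The ratio of summed large to summed small subunit CPM was 1.28 to 1.30 in Natural ovaries and 1.31 to 1.42 in IVF ovaries, without overlap. It is given as a value with no test.

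mRNA length moved with this comparison. Of 83 members with an annotated length, 63 were under 1000 bases, with a median of 774. Among the other genes tested, the 977 genes under 1000 bases had a median log2 fold change of -0.32 and 12.0% of them were called lower. The 3707 genes of 4000 bases or more had a median of 0.18 and 0.297% were called lower. Of the 64 other genes under 1000 bases with a mean of at least 100 CPM, 28.1% were called lower, and their median was -0.36. The median of the members lay below that of these short and abundant genes. When the trend of each library with mRNA length, fitted on the genes that are not members, was removed, 3 of 83 members were called lower, against 0.603% of all genes, where 58 had been called without that step. They were Rps15a (log2 fold change -0.74, edgeR adjusted p = 0.0229), Rpsa (-0.50, edgeR adjusted p = 0.0275) and Rps20 (-0.58, edgeR adjusted p = 0.0287). Their annotated lengths of 5130, 1768.5 and 3706 bases were far above the member median, and the trend removed from a gene depends on that length. Whether transcripts of these lengths were the ones expressed was not tested, so these 3 calls rest on the annotation. Without that step Rps15a was at 432, 542, 603 and 537 CPM in Natural ovaries and between 299 and 391 in IVF ovaries, and Rps20 was at 694, 909, 939 and 951 CPM and between 576 and 642. Neither pair of groups overlapped. With the trend removed the median of the members was -0.20, and 77 of 83 stayed below 0. This step was chosen after seeing the data.

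**Figure D2:**
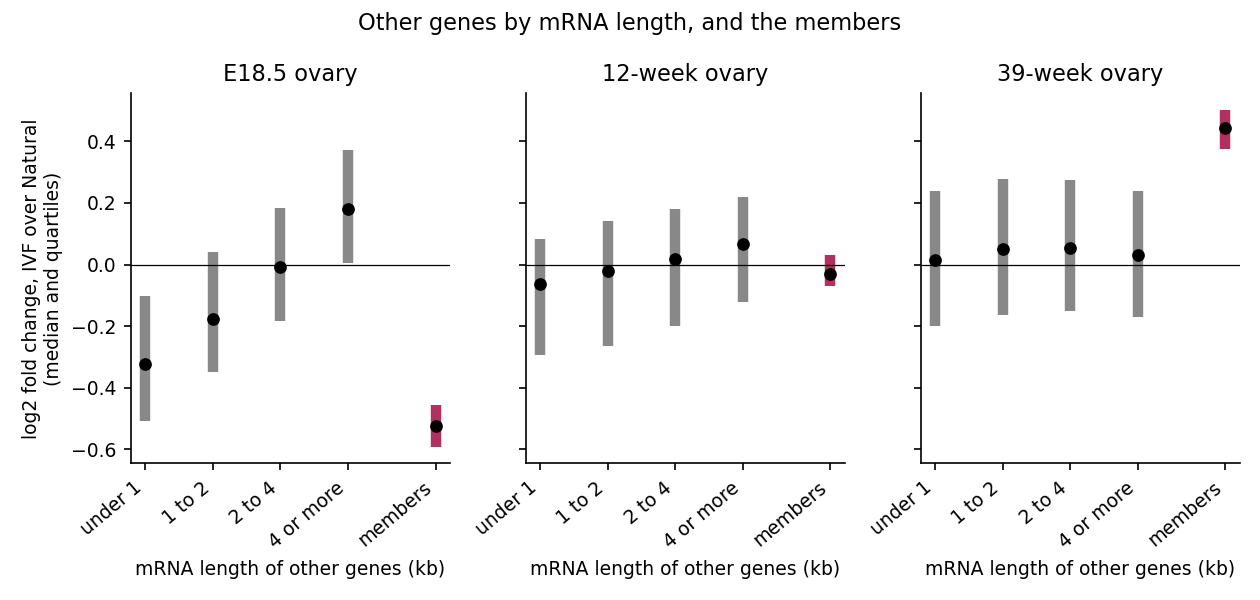
Median (black dot) and quartiles (bar) of the log2 fold change, IVF over Natural, for genes that are not members in 4 classes of mRNA length in kb (grey) and for the members (red), in ovaries at 3 ages. At E18.5 the median of the other genes goes from -0.32 under 1000 bases to 0.18 at 4000 bases or more, with the members at -0.52, whereas at 39 weeks the 4 classes lie between 0.01 and 0.05 and the members at 0.44.

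Other values also differed between the E18.5 groups. Noncoding RNAs without a poly(A) tail, such as Rmrp, the RNA of RNase MRP, and the 7SK RNA Rn7sk, summed to 15.6 to 491 CPM in Natural ovaries and 3.05 to 8.71 in IVF ovaries, and all 3 tested were called lower. They were highest in Natural ovaries 1 and 3, and with both of these left out, a choice made after seeing the data, 62 members were called lower. Natural ovaries 2 and 4, which stayed in, had sums of 15.6 and 17.0 CPM, still above every IVF ovary. Erythroid markers summed to 599 to 1599.9 CPM in Natural and 1601 to 4582 in IVF ovaries, with 2 of 6 called higher, and 3 of 6 theca and luteal markers tested were called higher too. Oocyte markers summed to 219 to 715 and 46.5 to 266 CPM, with 4 of 9 tested called lower and Oosp1 at 0 in every ovary. Germ cell markers overlapped, at 202 to 697 CPM in Natural and 203 to 450 in IVF ovaries. Of these, 1 of 7 was called lower, and their median log2 fold change was 0.26. The part of these differences in the result was not tested. The count of called members depended on single libraries: it was 27 without Natural ovary 2, 36 without Natural ovary 3 and 36 without IVF ovary 6, with medians of -0.51, -0.47 and -0.52. Shares of all genes called are not given here for the fits with ovaries left out.

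Gene groups that work with the ribosome had medians nearer to 0 or above it, whereas ribosomal proteins outside the name rule had a median like that of the members. The 5 ribosomal proteins outside the name rule, among them Fau, made as a fusion with a ubiquitin-like protein, and the scaffold protein Rack1, were all called lower, with a median log2 fold change of -0.54. Of 26 translation factors and other genes with TOP mRNAs, 3 were called lower (Eef1b2, Tpt1 and Vim) and 0 higher, with a median of -0.30. Eef1a1, the main elongation factor, had a log2 fold change of -0.30 (edgeR adjusted p = 0.149). Of 46 ribosome assembly genes tested, Nhp2, of box H/ACA particles, was called lower and Mdn1, a large AAA ATPase, higher. Of 11 RNA polymerase I genes, Polr1d was called lower. Of 20 genes that control TOP mRNAs, the kinase gene Mtor was called higher (log2 fold change 0.44, edgeR adjusted p = 0.0279), and its activator Rheb (-0.42) and the translation repressor Eif4ebp1 (-0.57) lower. Mitochondrial ribosomal proteins had a median of -0.34, and 4 of 76 were called lower. These groups were not matched by mRNA length to the members or to each other. At E18.5 the median of other genes was -0.32 under 1000 bases and 0.18 at 4000 bases or more. The part of length in these group medians and in the calls, those of Mtor and Mdn1 included, was not tested.

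The first bases of the transcripts are shown because the TOP tract is the feature that members of this family are known to share. RefSeq promoter entries (GRCm38.p6) matched 64 of 85 members. A tract was counted where the annotated start base was C and the run of C or T from it was at least 5 bases, read on the transcribed strand only. It was present in 14 of 64 members (21.9%), against 3.01% of the 27025 genes in the table, in 5 of 20 TOP translation factors (25%), and in 0 of 39 ribosome assembly and 0 of 68 mitochondrial ribosomal protein genes. Windows of 30 bases, 10 before the start and 20 from it, are given with the tract in capitals. The first 5 sequences are members with a tract.
Rpl15 (chr14:18270967-18270996, minus strand): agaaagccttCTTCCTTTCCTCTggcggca
Rps10 (chr17:27635225-27635254, minus strand): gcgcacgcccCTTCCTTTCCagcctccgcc
Rps6 (chr4:86857348-86857377, minus strand): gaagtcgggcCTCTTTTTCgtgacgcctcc
Rps15a (chr7:118116128-118116157, minus strand): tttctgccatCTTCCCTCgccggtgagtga
Rps27 (chr3:90213629-90213658, minus strand): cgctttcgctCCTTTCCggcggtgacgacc
The paralog Rps27l had no tract at the annotated start shown, which lay inside the gene span of chr9:66944624-66949522 and not at its outer end.
Rps27l (chr9:66946076-66946105, plus strand): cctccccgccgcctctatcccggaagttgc
At E18.5, 10 of 14 members with a tract were called lower, with a median log2 fold change of -0.58. Of 50 members without one at the annotated start, 33 were called, with a median of -0.52, and of 21 members without an entry 15 were called, with a median of -0.51. At 39 weeks these medians were 0.41, 0.44 and 0.47. A start site annotated a few bases away hides a tract, so absence here says only that these letters are not at that base.

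At 12 weeks the ovaries of the 2 groups did not separate in these genes. The members took 3.53% to 4.57% of TMM-scaled counts in Natural and 3.42% to 4.57% in IVF ovaries. Of 82 members tested, 0 were called by edgeR, where 2 had an unadjusted p under 0.05, and 0 were called by DESeq2 and by limma-voom. Of all genes tested at this age, 0.00567% were called lower and 0 higher. The median was -0.03, and it was 0.01 without IVF ovary 2 or Natural ovary 2 and 0.02 with the length trend removed. The members Rpl10l, Rpl39l and Rpl3l did not pass the filter on low counts, here and at 39 weeks.

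The smallest p-values at 12 weeks belonged to Rps26, Rps2 and Rpl22l1. Rps26, a protein at the mRNA exit channel, was at 476, 547, 442 and 656 CPM in Natural and 663, 630, 715, 780 and 598 in IVF ovaries, and the groups overlapped (log2 fold change 0.35, edgeR adjusted p = 0.286). Rps2 was at 1028, 1211, 898 and 884 CPM and at 954, 794, 571, 823 and 611 (log2 fold change -0.42, edgeR adjusted p = 0.306). Rpl22l1 had -0.18 (edgeR adjusted p = 0.37). The stalk proteins had log2 fold changes of 0.05 (Rplp0), -0.21 (Rplp1) and -0.11 (Rplp2), and Rpsa -0.06, all with overlapping groups and edgeR adjusted p-values of at least 0.471. Oviduct and epithelial markers summed to 3522 to 7824 CPM in Natural and 87.7 to 3114 in IVF ovaries at this age, and none of the 8 was called.

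At 39 weeks the order of E18.5 was turned, although no single member was called by edgeR. The members took 3.14%, 3.16%, 3.88%, 2.98% and 2.70% of TMM-scaled counts in Natural ovaries 1 to 5 and 5.10%, 4.36%, 4.39%, 4.23% and 3.74% in IVF ovaries 1 to 5. Natural ovary 3 was above IVF ovary 5 and otherwise the groups were apart. This overlap came with the scaling, since by unscaled counts the share was 2.63% to 3.60% in Natural and 3.68% to 4.87% in IVF ovaries. Of 82 members tested, 0 were called by edgeR and limma-voom, against 0.0582% of all genes called higher and 0.204% called lower by edgeR. At an unadjusted p under 0.05 there were 72 members, against 19.2% of all genes. DESeq2 called 53 members higher, against 3.39% of all genes. The median log2 fold change was 0.44, against 0.03 over all genes, and 81 of 82 members were above 0. IVF ovaries were all above Natural ovaries for 25 members, 19 large and 6 small, against 2.27% of all genes.

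Rps24 was at 371, 402, 442, 356 and 323 CPM in Natural ovaries and 513, 619, 601, 552 and 500.5 in IVF ovaries, without overlap (log2 fold change 0.56, SE 0.11, edgeR adjusted p = 0.0676). Rps28 was at 101, 95.8, 118, 89.3 and 84.1 CPM and at 179, 139, 159, 128 and 127 (0.59, SE 0.13, edgeR adjusted p = 0.075), and its groups did not overlap either. All 3 stalk proteins had IVF ovaries above every Natural ovary, with log2 fold changes of 0.60 for Rplp0, 0.59 for Rplp1 and 0.58 for Rplp2 and edgeR adjusted p-values of 0.0896, 0.141 and 0.106. Rpsa had 0.55 (edgeR adjusted p = 0.107), without overlap. Rps6 (0.42, edgeR adjusted p = 0.188), Rps27a (0.39, 0.121) and Rpl5 (0.48, 0.0825) overlapped, and Rpl11 (0.42, 0.113) did not.

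Rps27l was the 1 member below 0 at 39 weeks. It was at 88.4, 74.7, 70.9, 70.3 and 62.4 CPM in Natural and 62.0, 70.1, 76.8, 57.8 and 69.4 in IVF ovaries (log2 fold change -0.13, edgeR adjusted p = 0.543), with overlap. Its parent Rps27 had a log2 fold change of 0.33 (edgeR adjusted p = 0.239).

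**Figure D3:**
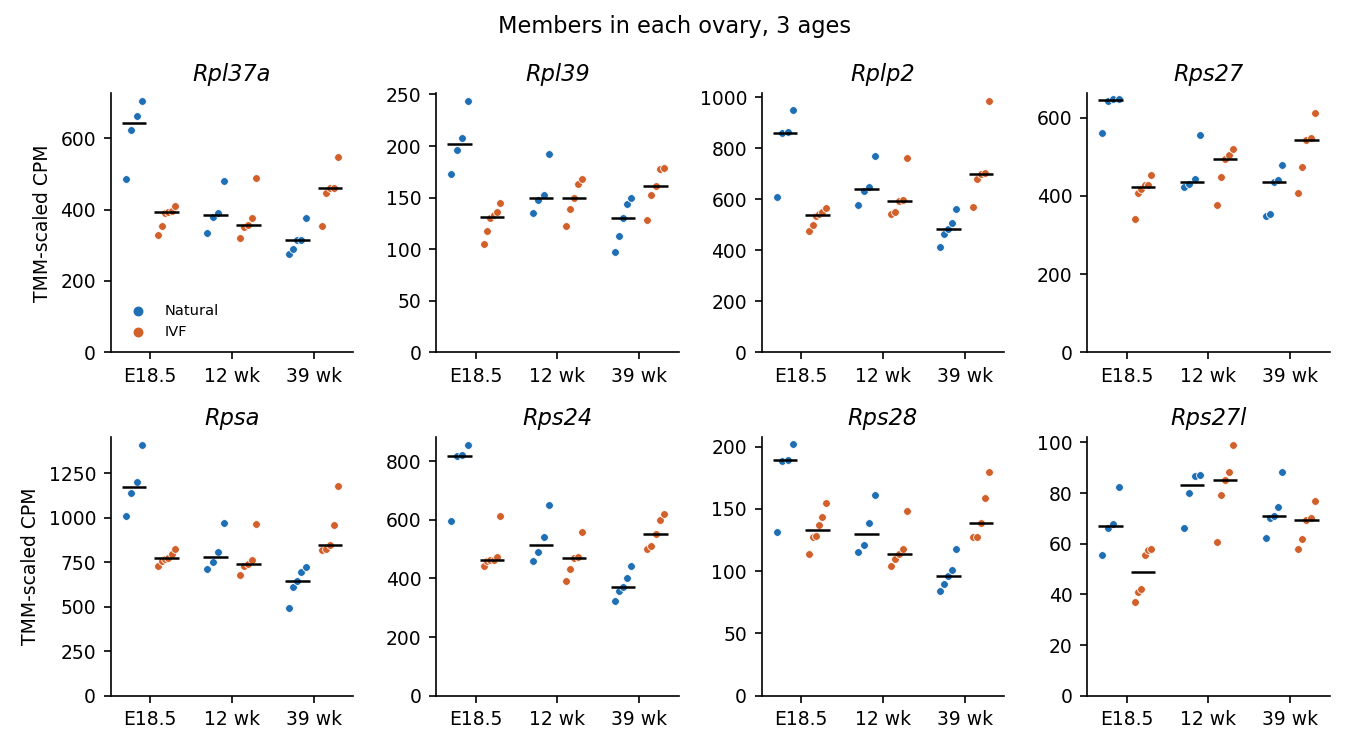
TMM-scaled CPM of 8 members in each ovary at 3 ages, Natural in blue and IVF in orange, each point 1 ovary and bars the medians; the scaling was done within each age. Natural points lie above IVF points for all but Rps24, Rps28 and Rps27l at E18.5, the groups overlap at 12 weeks, and at 39 weeks Rplp2, Rpsa, Rps24 and Rps28 have every IVF point above the Natural points.

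mRNA length did not move with the 39-week comparison. Other genes under 1000 bases had a median log2 fold change of 0.01 and those of 4000 bases or more 0.03. With the length trend removed, 9 of 80 members were called higher, against 0.351% of all genes, with the median at 0.45, and Rps28, Rps24, Rpl27 and Rplp0 were among them. Summed theca and luteal markers were 18248 to 29828 CPM in Natural and 10148 to 22091 in IVF ovaries, granulosa markers 865 to 2525 and 1640 to 4200, and none of the 7 or 9 genes was called. Oviduct and epithelial markers were at 8974 CPM in IVF ovary 1 and between 54.0 and 232 in the other ovaries. Without IVF ovary 1 the median of the members was 0.40 and 0 were called. The part of these cell types in the result was not tested.

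Most gene groups that work with the ribosome had medians above 0 at 39 weeks, smaller than that of the members. The 5 ribosomal proteins outside the name rule had a median log2 fold change of 0.42, the 26 TOP translation factors 0.37 and the 46 ribosome assembly genes 0.23, with 4, 16 and 23 of them at an unadjusted p under 0.05 in edgeR, against 19.2% of all genes. The 11 RNA polymerase I genes had a median of 0.21, with 3 at that level. The 20 genes that control TOP mRNAs had a median of 0.01, with 11 above and 9 below 0 and 4 at an unadjusted p under 0.05. Mitochondrial ribosomal proteins had a median of 0.09, with 10 of 76 at an unadjusted p under 0.05, a smaller share than that of all genes. In each of these lists edgeR called 0.

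A model of all 29 ovaries tested whether the IVF effect on a member differed between ages. In its scaling the members took a mean of 4.84% (SD 0.451, n = 4) in Natural and 3.30% (SD 0.101, n = 6) in IVF ovaries at E18.5, 3.94% (SD 0.411, n = 4) and 3.82% (SD 0.426, n = 5) at 12 weeks, and 3.45% (SD 0.441, n = 5) and 4.69% (SD 0.408, n = 5) at 39 weeks. The IVF effect at 39 weeks exceeded that at E18.5 in 75 of 85 members, 45 large and 30 small, against 5.10% of all genes called higher, with a median difference of 0.96 against 0.07 over all genes (edgeR). With the length trend removed, 68 of 83 members were called, against 3.84% of all genes, with a median of 0.68. Leaving out 1 ovary gave 73 to 76 called members. Among the members with the smallest p were Rpl32 (difference of log2 fold changes 1.21, SE 0.16, edgeR adjusted p = 0.000136), Rps24 (1.24), Rpl28 (1.16) and Rpl18 (1.04).

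The 10 members that were not called in this contrast were Rpl26, Rpl29, Rpl34, Rpl35a, Rps2 and the paralogs Rpl10l, Rpl39l, Rpl3l, Rps27l and Rps4l. Between 39 and 12 weeks, 12 members were called higher, against 1.96% of all genes (DESeq2 32, against 5.36%; edgeR with the length trend removed 13, against 3.12%), among them Rps24 (0.76, edgeR adjusted p = 0.0261), Rps28 (0.76), Rps20 (0.65) and Rpl18 (0.58). This count rested on single ovaries: it was 0 without 12-week IVF ovary 3 or 39-week Natural ovary 5, and between 1 and 5 without 12-week IVF ovary 1 or 5, any 12-week Natural ovary, 39-week IVF ovary 1 or 39-week Natural ovary 2 or 4. It was 19 without E18.5 Natural ovary 4, 21 without 12-week IVF ovary 4, 29 without 39-week Natural ovary 3 and 32 without 39-week IVF ovary 5. Between 12 weeks and E18.5, Rps26 alone was called (1.12, edgeR adjusted p = 0.0492), against 0.274% of all genes (DESeq2 27, against 1.31%; edgeR with the length trend removed 0, against 0.0756%), and Rpl11 (0.60) and Rpl32 (0.70) followed with edgeR adjusted p-values of 0.0544 and 0.0647. That count ran from 0, without any of 20 single ovaries, to 7 without E18.5 Natural ovary 1 and 9 without 12-week IVF ovary 2.

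**Figure D4:**
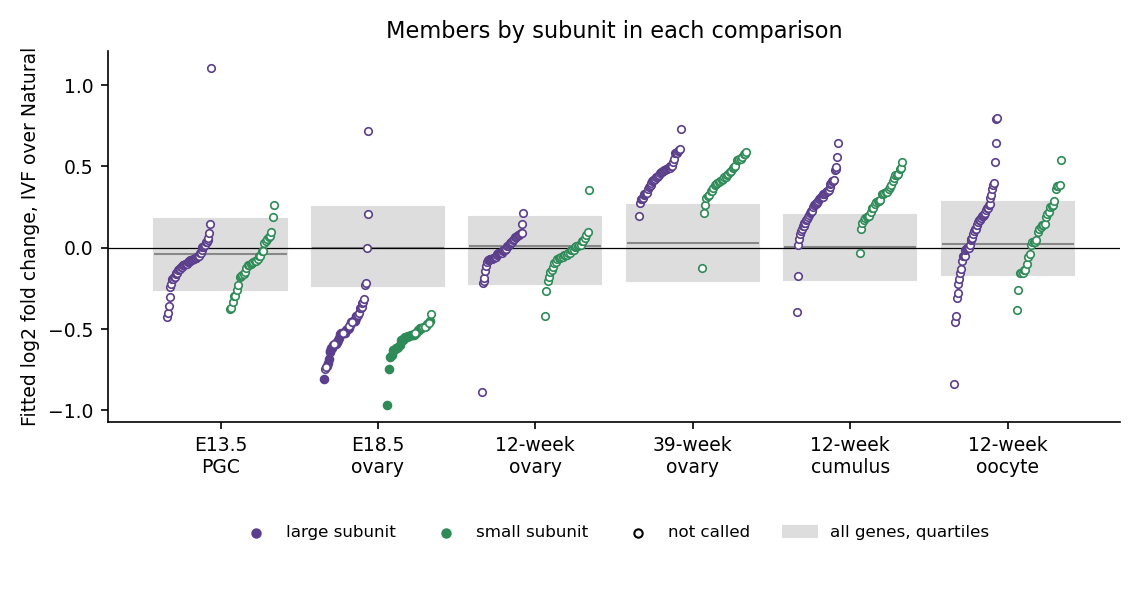
Fitted log2 fold change of each member, IVF over Natural, in 6 comparisons, large subunit in purple and small subunit in green, filled where called by edgeR; grey boxes are the quartiles and medians of all genes tested. The filled points are all at E18.5, where 58 members were called lower, and most members lie above the grey box at 39 weeks.

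In PGCs no member differed detectably with conception. Of 85 members tested, 0 were called by edgeR and 0 by DESeq2, 0 had an unadjusted p under 0.05 in edgeR against 2.73% of all genes, and the median was -0.09. The sign of this median rested on single libraries: it was 0.22 without Natural library 1, 0.00 without IVF library 2 and -0.22 without IVF library 4. The smallest p-values were those of Rpl30 (log2 fold change -0.30), Rpl32l (-0.36) and Rpl3l, each with an edgeR adjusted p of 1.00. The spread within a group was wide: Rpl4, a large subunit protein, was at 8913, 2725, 5173 and 4968 CPM in Natural and 6728, 3086, 3704, 7661 and 4187 in IVF PGCs.

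In cumulus cells the members were higher in IVF on average, below the threshold for calls. Of 81 tested, 0 were called by edgeR, against 0.00973% of all genes called lower, and 0 by DESeq2, and 24 had an unadjusted p under 0.05 in edgeR, against 6.08% of all genes. The median was 0.29 and 78 were above 0. Rps18 was at 122, 143, 152, 126 and 155 CPM in Natural and 169, 219, 182, 176 and 209 in IVF cumulus cells, without overlap (log2 fold change 0.45, edgeR adjusted p = 0.655). Rpl37 and Rpl41 were the others without overlap, so 3 members in all, against 0.399% of all genes. Rpl34 (0.56) and Rpl31 (0.64) had overlapping groups and edgeR adjusted p-values of 0.655 and 0.657. The fit held a term for 2 sets of library names, and without it 9 members had an unadjusted p under 0.05. In the numbered libraries alone 1 did, with a median of 0.19. One Natural library carried name fields of the IVF oocytes, and without it the median was 0.31. With 1 library left out, the number at an unadjusted p under 0.05 ran from 11 without IVF library 2, with 12 and 13 without Natural library 1 or IVF library 5 and 15 without Natural library 2, to 42 without Natural library 3 or without IVF library 3. Shares of all genes at that level are not given here for these alternative fits. Other genes under 1000 bases had a median of 0.10 in this comparison and those of 4000 bases or more -0.03.

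In oocyte libraries most members had low counts and a few had higher ones. The low-input protocol reverse-transcribed polyadenylated RNA, so these counts do not measure mRNA without a poly(A) tail. The median member had 3.59 TMM-scaled CPM per kb of mRNA over the 12-week donor sets, against 204 in cumulus cells and 725 in PGCs. The highest level per kb was that of Rps27l in oocytes, with a mean of 171 CPM per kb at 12 weeks and 143 at 39 weeks. In ovaries it was that of Rplp1 (1675 to 1779 at the 3 ages) and in cumulus cells that of Rps27 (1841). The lowest was that of Rpl3l, or of Rpl10l in cumulus cells. In the 36 Natural oocytes at 12 weeks Rps27l had a median of 90.5 CPM, with the lowest at 11.5 and the highest at 206. The 40 IVF oocytes had a median of 86.7 CPM and lay between 24.0 and 241. Without the oocytes low in oocyte markers the lowest were at 54.0 and 54.2 CPM. Rpl4 (medians 36.7 and 34.7), Rplp0 (32.9 and 34.6), Rpl17 (29.4 and 33.6) and Rpl15 (29.8 and 32.1) were also at or above 20 CPM by median in both groups, and were chosen after their values were seen.

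Sets of 12-week oocytes with the same leading fields in the library name were used as the replicates and are called donor sets. The labels do not say that these fields name a donor, so a shared donor within a set is an assumption. Of 84 members tested over 5 sets a group, 0 were called by edgeR and 0 by DESeq2, with 0 and 1 at an unadjusted p under 0.05, against 6.67% of all genes in edgeR. Of all genes, edgeR called 0.0208% higher and 0.00692% lower. The median was 0.12. It was -0.04 without the IVF set that held 4 of the 6 IVF oocytes low in oocyte markers, and -0.02, with 0 called, without all oocytes low in these markers. The smallest p-values were those of Rpl17 (log2 fold change 0.36, edgeR adjusted p = 0.745), Rpl7l1 (0.79) and Rpl34 (0.53). The first field of these names differed between Natural and IVF throughout, so conception and that field cannot be told apart.

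At 39 weeks the library names held no such fields, each group of oocytes counted as 1 sample, and no test was made. Of 78 members that passed the filter, the mean CPM was at least 1.5-fold higher in IVF for 6 members, against 15.9% of all genes, and at least 1.5-fold lower for 16, against 18.9%. The higher members were Rpl13 (14.4 against 9.58 CPM), Rpl35a, Rpl36a, Rpl37, Rpl6 and Rps24. Among the lower ones were Rpl7l1 (1.97, SD 1.88, against 9.25 CPM, SD 7.15), Rps15 (1.11 against 5.22) and Rplp0 (47.5, SD 14.7, against 72.7, SD 61.2). For Rps15 the SD over Natural oocytes was 11.4, above its mean. Taking medians over oocytes gave 16 members higher and 15 lower, against 1911 and 1927 of all 10940 genes. Leaving out the 2 Natural oocytes low in oocyte markers gave 5 and 15 members, against 1466 and 1529 of these genes.

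Paralogs changed places with their parents between cell types. Rps27l was at 418 to 1097 CPM in PGCs, where its level per kb was 92.1% to 161% of that of Rps27. In E18.5 ovaries it was 5.98% to 8.74%, in adult ovaries 7.28% to 13.0% and in cumulus cells 9.93% to 22.1%. In the 12-week oocyte sets Rps27 was at 0.469 to 4.75 CPM and Rps27l at 59.7 to 154 CPM, so that the paralog stood at 818% or more of the parent per kb. All PGC libraries were above all ovary and cumulus libraries in this percentage, and all oocyte sets above all PGC libraries. Each table was scaled on its own, and ovaries were prepared by another protocol than the cells.

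Rps4l, a copy of the X-linked gene Rps4x, was at 315 to 1309 CPM in PGCs, 52.6 to 204 in E18.5 ovaries, 3.89 to 26.0 in adult ovaries and at most 10.8 in cumulus cells. Rpl10l, the autosomal copy of X-linked Rpl10, followed the same order, with 20.9 to 77.8 CPM in PGCs, 5.81 to 35.2 in E18.5 ovaries, at most 1.28 in adult ovaries and 0 in every cumulus library. Rpl39l was at 25.4 to 80.3 CPM in PGCs and 3.55 to 15.4 in E18.5 ovaries, and in 12-week oocyte sets it stood at 60.7% to 510% of Rpl39 per kb, with both genes at 2.63 CPM or less. Rpl10l and Rpl39l are known as germ cell copies of ribosomal proteins of the male line.

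Rpl22l1 and Rpl22 moved apart in the other direction. Per kb, Rpl22l1 stood at 84.7% to 242% of Rpl22 in ovaries, 392% to 887% in PGCs and 892% to 1580.3% in cumulus cells, but at 2.15% to 42.3% in the oocyte sets. Rpl22 was at 16.5 to 23.0 CPM in oocyte sets and 11.4 to 23.8 in cumulus cells, whereas Rpl22l1 was at 0.108 to 2.52 in the first and 43.9 to 88.3 in the second. Rpl7l1 stood at 4.42% to 12.5% of Rpl7 per kb in ovaries, PGCs and cumulus cells, and at 28.7% to 264% in the oocyte sets. Rpl3l stood at 0.532% of Rpl3 or less in ovaries, PGCs and cumulus cells. Of these paralogs, Rpl22l1 was called lower in IVF ovaries at E18.5 (log2 fold change -0.58, edgeR adjusted p = 0.044), and its groups overlapped. None of the paralogs tested was called for conception by edgeR in PGCs, 12-week oocytes, cumulus cells or adult ovaries. Levels of ribosomal proteins with many processed pseudogenes are uncertain, since multimapped reads may be lost or shared; rows named -ps held counts equal to 0.276% to 0.513% of those of the members in ovaries and PGCs, 0.380% to 0.984% in cumulus cells, 1.02% to 1.34% in 12-week oocyte sets and 0.331% to 4.47% in 39-week oocytes.

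**Figure D5:**
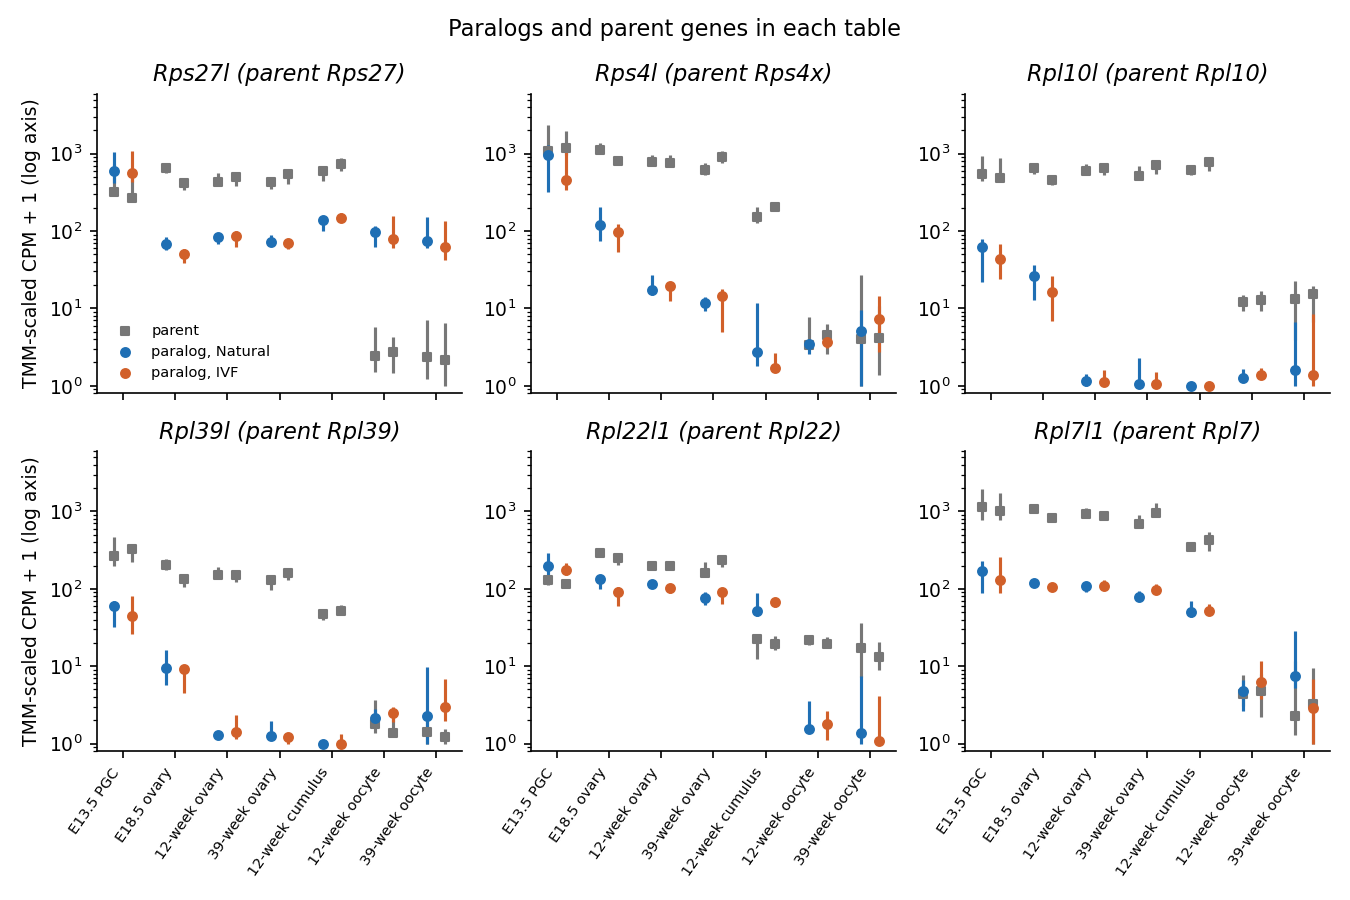
TMM-scaled CPM plus 1 (log axis) of 6 paralogs (circles, Natural blue, IVF orange) and their parents (grey squares) in the 7 tables; symbols are medians over libraries, donor sets or 39-week oocytes and lines run from the lowest to the highest. Rps27l meets Rps27 in PGCs and lies above it in oocytes, and Rpl22l1 lies above Rpl22 in cumulus cells and below it in oocytes.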

How the data were processed

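Counts per gene were deposited by the authors, raw and not normalized; the submitters' notes name Trimmomatic 0.32, STAR 2.3.0e, featureCounts 1.5.0, DESeq2 and the mm10 build. Between 65.2% and 78.4% of counts from 1 to 39 were even, and whether both mates of a pair were counted is not given in the sources used here. Groups came from the labels. The study's methods say that sequenced ovaries were of separate animals and several litters, with littermates limited in adult cohorts, but the labels do not tie libraries to litters, so p-values measure the spread between these samples. Each table was fitted over all genes with edgeR 4.0.16 (R 4.3.3; TMM, filterByExpr, two-sided quasi-likelihood test, Benjamini-Hochberg adjusted p under 0.05), with a term for the set of library names in cumulus cells. Alternatives were DESeq2 1.42.0, limma 3.58.1 (voom), other scalings and filters, leaving out each library, a replicate block, and 3 chosen after seeing the data. These left out E18.5 Natural ovaries 1 and 3, left out oocytes under 10000 CPM of summed oocyte markers, or removed each library's lowess trend with mRNA length. CPM are TMM-scaled within a table. Counts of 12-week oocytes were summed per donor set. mRNA lengths are medians over coding transcripts of GENCODE vM21 basic and covered 84.2% to 86.8% of other genes tested in ovaries. The edgeR fit was also run on simulated counts for E18.5 ovaries, 39-week ovaries and cumulus cells, with genes drawn independently of each other. A shared shift of a gene family, the model of all ovaries and the donor sets were not simulated. The outcome is not given here. The members and gene lists were chosen with earlier results of these data known. Named genes were, in each test, the 5 called members with the smallest p in each direction, or the 3 smallest p where fewer than 5 were called. Paralog pairs, stalk and other proteins with known roles in ovary, extremes of level, members against the majority and members failing the filter were named as well. No pair of libraries in a table had equal counts in more than 2.02% of genes compared. Cumulus cells at 39 weeks were not analysed here. Some named genes that the rule selects are not reported here.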

Additional observations from a re-analysis of the deposited data

Results flagged for a closer look

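The IVF effect on members differed between ages when the difference itself was tested in the model of all ovaries (edgeR). Between 39 weeks and E18.5 it differed in 75 of 85 members, between 39 and 12 weeks in 12, and between 12 weeks and E18.5 in 1, with a higher value at the later age in each of them. Of all genes, 5.10%, 1.96% and 0.274% were called higher in these contrasts.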

How the results depend on the processing

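At E18.5 the count of 58 lower members was 55 to 72 under the other tools, scalings and filters. It was 27 to 70 when 1 ovary was left out, 3 with the mRNA length trend removed and 0 under the replicate block. Under that block 72 had an unadjusted p under 0.05 in edgeR, and the median was -0.50. In the main edgeR fit 24.1% of all genes were at that level. The share under the block is not given here. For the ovary fits here and below, shares of all genes are given only for the main fit, DESeq2 and the length trend removed. Natural and IVF samples of the same replicate number are different animals, and the labels do not say whether they shared a batch. In no table did every same-numbered pair deviate together at a correlation above 0.1. The correlations ran from -0.13 to 0.01 at E18.5, -0.36 to 0.25 in 12-week ovaries and -0.32 to 0.17 in cumulus cells. In 39-week ovaries pairs 1, 2 and 5 were at 0.40, 0.21 and 0.20, and pairs 3 and 4 at -0.01 and 0.07. In PGCs pairs 1, 2 and 4 were at 0.28, 0.53 and 0.34, and pair 3 at -0.06. The cause of these differences in count was not tested.

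At 39 weeks edgeR called 0 members, DESeq2 53, edgeR with library size only 1, and edgeR with the length trend removed 9. Leaving out 1 ovary gave 0 throughout, with medians of 0.40 to 0.54. Between 39 weeks and E18.5 the 75 members were 73 to 76 with 1 ovary left out and 71 under the replicate block. Between 39 and 12 weeks the 12 members became 32 by DESeq2, 7 with library size only, 21 with at least 10 counts in every sample, 0 under the replicate block, and 0 to 32 with 1 ovary left out. Between 12 weeks and E18.5 the 1 member became 27 by DESeq2, and 0 with RLE factors, library size only, at least 10 counts in every sample, the replicate block or the length trend removed, and 0 to 9 with 1 ovary left out. For 39-week oocytes 22 members passed 1.5-fold in either direction, and 20 did without the oocytes low in oocyte markers. By summed counts 36 did, where 2289 of 10940 genes were higher and 2817 lower. With at least 10 counts in every oocyte 2 of 21 did, where 506 of 5266 genes were higher and 636 lower. In PGCs, cumulus cells, 12-week oocytes and 12-week ovaries the count was 0 under every alternative run. Medians of the members changed sign with 1 library or set left out in PGCs (-0.22 to 0.22), 12-week ovaries (-0.11 to 0.01) and 12-week oocytes (-0.04 to 0.30). Of 2679 values of single members under alternatives, 2422 kept their sign and side of the threshold, 109 lost the call, 38 gained one and 110 changed sign. All of these 110 belonged to members not called, and 0 called members changed sign. The depth of 2839022 counts in 12-week IVF ovary 4 limits low members there.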

Other observations

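Rpl29 and Rpl26, both large subunit proteins, fell into separate levels across adult ovaries, with ovaries of both groups at the higher and the lower level. They were chosen after their values were seen. The levels were not spread evenly over the groups, and Rpl26 had a log2 fold change of -0.89 at 12 weeks. At 12 weeks Rpl29 was at 159 CPM in IVF ovary 1 and 146 in Natural ovary 4, and between 58.8 and 69.3 CPM in the other 7 ovaries. At 39 weeks it was at 197 CPM in IVF ovary 1, 163 in IVF ovary 5 and 129 in Natural ovary 4, and between 46.5 and 76.9 in the other 7. At 12 weeks Rpl26 was between 249.9 and 334 CPM in Natural ovaries 1 to 3 and IVF ovary 4, and between 75.1 and 106 in the other 5. At 39 weeks it was between 74.1 and 120 CPM in Natural ovaries 1 and 4 and IVF ovary 3, at 159 in Natural ovary 5, and between 238 and 303 in the other 6.

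In single oocyte libraries Rps27, the parent of Rps27l, was at or near 0. At 12 weeks it was at 0 in 13 of 36 Natural and 7 of 40 IVF oocytes, with medians of 0.41 and 0.78 CPM, whereas Rps27l was above 0 in all of them. Without the oocytes low in oocyte markers these were 11 of 32 and 6 of 34. Rplp0 reached 726 CPM in 1 IVF oocyte, against a group median of 34.6.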
